A study of Mus musculus with 16 samples.

Results

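Active chromatin of the adult mouse small-intestinal epithelium was compared with that of the embryonic epithelium through H3K27ac, the acetylation of lysine 27 of histone H3, measured by chromatin immunoprecipitation and sequencing (ChIP-seq). The adult side held 4 libraries, 2 of Lgr5-positive intestinal stem cells (ISC) and 2 of enterocytes, and the embryonic side held 4 libraries, 2 of epithelium of embryonic day E12.5 and 2 of E14.5. The peaks of all 8 libraries were merged where they overlapped or touched, which gave 79482 regions on the mouse build mm9. A region was gained when all 4 adult libraries and no embryonic library had a peak in it, and lost in the reverse case. By this rule 1548 regions were gained and 4035 were lost, together 5583 or 7.02% of all merged regions.

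All mice were of a mixed C57BL/6 CD1 background. The adult cells came from males of postnatal day 60 that carried Lgr5EGFP-Cre-ERT, a knock-in in which the Lgr5 promoter drives a green fluorescent protein and an inducible Cre recombinase. That allele is named in the labels for the adult mice, whereas no allele and no sex is named for the embryos, so age cannot be told apart from either. Embryonic cells and enterocytes were sorted as live cells with the epithelial surface protein EpCAM and without CD31 (endothelium) or CD45 (leukocytes). ISC were crypt cells with high Lgr5-EGFP. Enterocytes were defined by that epithelial sort and not by an enterocyte marker. Embryonic tissue was dissociated with collagenase, whereas adult tissue was first separated into villi and crypts with EDTA, so dissociation also moved with age. The series describes the libraries of each group as biological duplicates, and the number of animals behind each library is not stated in the labels. The ChIP libraries held 34.6 to 54.6 M tags, with 35614 to 52510 peaks that covered 38.8 to 76.1 Mb. The sorted identities were not checked against marker genes, because no gene table of the build mm9 was used here; for the same reason regions are named by position, and no sequence is printed.

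As background, H3K27ac is laid down by the acetyltransferases CBP and p300 at nucleosomes that flank active promoters and enhancers, and it is lost when these elements fall silent. At E12.5 the gut lining is a pseudostratified tube of proliferating endodermal cells, and at about E14.5 it begins to form villi and to express intestinal genes. In the adult, Lgr5-positive stem cells at the crypt base divide throughout life, and their progeny leave the crypt and mature into enterocytes, the absorptive cells of the villus. A gained region here is one with peaks in both sorted adult populations and at neither embryonic day, and a lost region is the reverse.

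For each age taken separately, most regions with a peak in all 4 of its libraries also had a peak in all 4 libraries of the other age. A further 12282 regions, 15.5% of the total, had a peak in all 8 libraries and are called common below. The gained regions made up 1.95% of the merged regions and the lost regions 5.08%, and 61617 regions fell in none of these 3 classes. Of the 16603 regions with a peak in all 4 adult libraries, 74.0% were common and 9.32% were gained. Of the 23115 regions with a peak in all 4 embryonic libraries, 53.1% were common and 17.5% were lost. Embryonic peaks were thus missing from the adult in a larger share of the regions of their age than adult peaks were from the embryo.

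**Figure D1:**
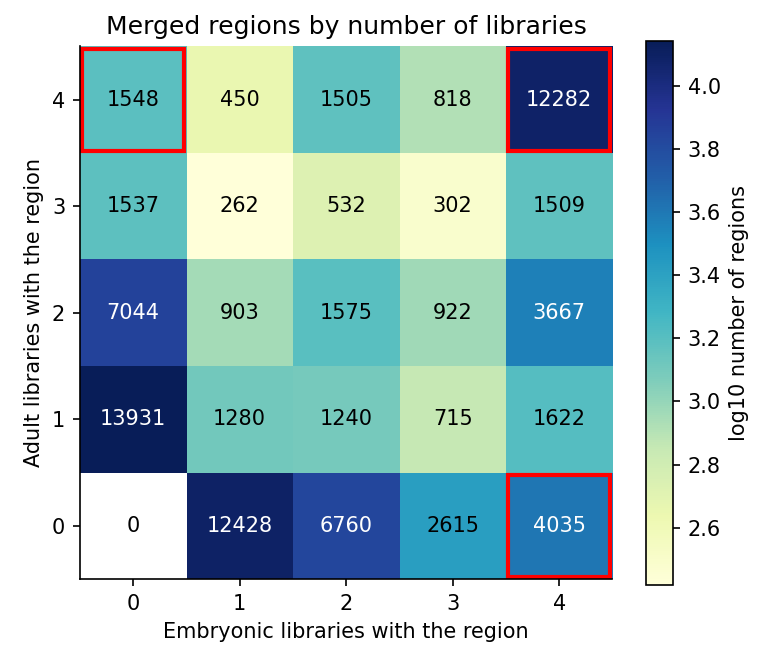
Number of merged regions by how many of the 4 embryonic libraries (horizontal axis) and how many of the 4 adult libraries (vertical axis) had a peak in them, with colour on a log10 scale. The red frames mark the 1548 gained, the 4035 lost and the 12282 common regions, and the 13931 and 12428 regions seen in a single library fill the cells next to the empty corner.

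The groups in between the extremes were not equally close to the other age. Among the regions of all 4 adult libraries, 1429 (8.61%) were also in both E14.5 libraries and in no E12.5 library, and 16 (0.0964%) were in both E12.5 libraries and in no E14.5 library. Among the regions of all 4 embryonic libraries, 3491 (15.1%) recurred in both ISC libraries but in no enterocyte library, against 86 (0.372%) in both enterocyte libraries and in no ISC library. Regions that bridged the ages on the later embryonic day or in the adult stem cell therefore numbered about as many as the gained and the lost regions themselves. Peaks covered 38.8 Mb in each enterocyte library and 51.2 and 76.1 Mb in the ISC libraries, so covered length moved with the second of these asymmetries, and its part in it was not tested. Between the embryonic days covered length overlapped, with 43.6 and 59.99 Mb for E12.5 and 65.1 and 56.9 Mb for E14.5. The fold enrichment over the local background, the authors' own score, did not overlap. Its median in common regions was 9.69 and 11.6 in the E12.5 libraries and 17.6 and 14.4 in the E14.5 libraries. The part of this difference in the first asymmetry was not tested.

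The balance of gains and losses differed with the adult cell type and with the number of adult libraries. Without both enterocyte libraries, ISC alone against the embryo gave 5947 gained and 4213 lost regions, so that gains outnumbered losses. Without both ISC libraries, enterocytes against the embryo gave 6056 gained and 9369 lost regions. A side with 2 libraries meets the criterion of presence in all of them more easily, and the criterion of absence as well, so all these counts exceed those with 4 adult libraries, and cell type, number of libraries and number of peaks were not separated by a test. With equal numbers of peaks taken from each list, 1711 regions were gained and 2920 lost, and losses remained the more numerous class.

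**Figure D2:**
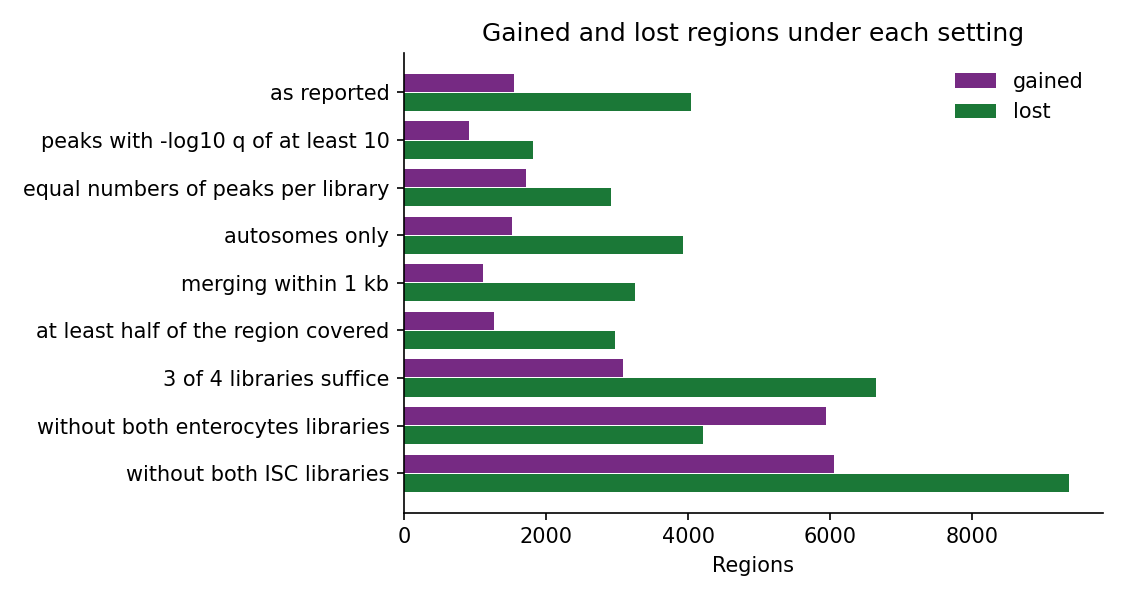
Number of gained (purple) and lost (green) regions as reported and under each other setting, apart from those that leave out a single library. Lost regions outnumbered gained regions in each of these settings except without both enterocyte libraries, where 5947 were gained and 4213 lost.

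Regions that missed the rule by 1 library did so mostly through a few libraries. Of the 1622 regions that were in all embryonic libraries and in exactly 1 adult library, 1515 were in ISC replicate 2, the library with the largest covered length (76.1 Mb), where the median peak length in them was 468 bp. Of the 1537 regions that were in 3 adult and no embryonic libraries, 976 were missing from ISC replicate 1. Of the 450 regions that were in all adult libraries and in exactly 1 embryonic library, 303 were in E14.5 replicate 1 and 103 in E14.5 replicate 2, against 39 and 5 in the E12.5 libraries. Among the 2615 regions that were in 3 embryonic and no adult libraries, 1201 were missing from E12.5 replicate 1 and 1059 from E14.5 replicate 2. Without ISC replicate 1 the number of gained regions was 2540 in place of 1548, the only single library whose removal moved either count by more than 1.5 times.

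The longest lost region was the longest of either class. It lay at chr7:149737366-149765568, where peaks covered 27.01 and 28.2 kb at E12.5 against 27.5 and 27.1 kb at E14.5, and no peak was called in ISC or enterocytes. Its best peak in each embryonic library ranked between percentiles 97.1 and 99.9 of that library's list by −log10 q, and its fold enrichment over the local background, the authors' own score, was 18.9 to 24.6. A further 10 lost regions lay within 100 kb of it, among them chr7:149843530-149852598, with 7.25 and 7.32 kb for E12.5 and 8.85 and 9.07 kb for E14.5. Next to it lay a common region, chr7:149704557-149730038, which is the common region that shrank most in the adult (below). Within 233.6 kb at this locus there were thus 13 lost regions, with 54.3 to 62.2 kb of peaks in each embryonic library and none in the adult, while all peaks of the span, members or not, came to 82.2 to 101.0 kb in the embryo and 0.761 to 1.33 kb in the adult.

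The next 9 lost regions, by smallest covered length and at least 100 kb from each other and from the first, were covered over 6.51 to 11.9 kb in every embryonic library. The region chr6:49168141-49179161 had 10.7 and 10.97 kb in the E12.5 libraries and 10.7 and 10.1 kb in the E14.5 libraries. The libraries of the 2 days overlapped as deposited, but when scaled by total covered length both E12.5 libraries exceeded both E14.5 libraries. At chr11:18912358-18924507 the E12.5 libraries, with 11.2 and 11.9 kb, stood above the E14.5 libraries, with 8.66 and 8.31 kb. The region chr10:44200092-44210794 had 8.19 and 10.6 kb at E12.5 against 10.6 and 10.7 kb at E14.5, so as deposited only E12.5 replicate 1 was lower. Around it, 4 more lost regions lay within 16 kb, the nearest at chr10:44195645-44200024 with 3.91 to 4.27 kb in each embryonic library.

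At chr12:25808878-25820053 the covered length was 9.78 and 11.02 kb for E12.5 and 9.74 and 7.95 kb for E14.5. The region chr11:95861381-95870464 had 8.00 and 9.08 kb in the E12.5 libraries and 8.50 and 7.91 kb in the E14.5 libraries, and its best peaks ranked at percentiles 96.3 to 99.4 of their lists. Unlike the other 9 of these 10, it lay in dense common chromatin, with 8 common regions within 100 kb. At chr8:34994188-35003329, with 7.80 to 8.87 kb in each embryonic library, 11 further lost regions lay within 100 kb. Both E12.5 libraries, with 8.46 and 8.55 kb, exceeded both E14.5 libraries, with 7.57 and 7.47 kb, at chr12:28020789-28029569. The regions chr9:42586874-42594251 (6.95 to 7.29 kb) and chr7:56774803-56783396 (6.51 to 8.59 kb) closed the list, with 12 and 6 further lost regions within 100 kb.

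No gained region was as long as the longest lost one. The longest of this class lay at chr15:85528300-85539870, where peaks covered 8.21 and 10.5 kb in ISC and 10.1 and 10.8 kb in enterocytes, and no peak was called in the embryo. A pair of further gained regions lay 10.2 and 38.8 kb from it, at chr15:85513365-85518053 (3.53 to 4.66 kb in the adult libraries) and chr15:85482974-85489486 (5.05 to 6.51 kb). As deposited, the cell types overlapped in covered length at the first of these 3 and ISC exceeded enterocytes at the others. After each library was scaled by its total covered length, enterocytes exceeded ISC at all 3. Second by its smallest covered length, chr4:148157341-148166165 had 7.31 and 8.48 kb in ISC and 8.71 and 8.55 kb in enterocytes. It had the highest rank of the 10, with best peaks at percentiles 91.5 to 97.8 of their lists, and 6 further gained regions within 100 kb.

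The region chr15:97771483-97777674 had 5.50 and 6.19 kb in ISC and 5.64 and 5.63 kb in enterocytes, and chr15:97743930-97751121, 20.4 kb away, had 6.08 and 6.95 kb against 5.38 and 5.31 kb. These lengths are as deposited, and after scaling both enterocyte libraries exceeded both ISC libraries at each of these regions. At chr19:10037595-10044539 the 4 adult libraries had 4.95 to 6.68 kb and the cell types overlapped as deposited, but after scaling enterocytes exceeded ISC. As deposited, ISC libraries exceeded both enterocyte libraries at chr6:131288330-131297583, with 7.14 and 8.995 kb against 6.51 and 4.92 kb, and at chr12:78292926-78301524, with 8.29 and 8.60 kb against 4.46 and 6.61 kb; after scaling the cell types overlapped at both. The region chr15:99545361-99551243 had 4.44 to 5.78 kb in the adult libraries. Scaled, both enterocyte libraries exceeded both ISC libraries at chr9:77360875-77367397. As deposited, ISC replicate 2 had 6.52 kb there and the other adult libraries 4.29 to 5.12 kb. The last were chr12:86767492-86773595 (4.22 to 6.10 kb), where as deposited the same library stood above the rest, and chr11:42968322-42974378 (3.99 to 6.06 kb), where enterocyte replicate 2 stood below them, also as deposited. The order of the cell types depended on the scaling: as deposited, both ISC libraries exceeded both enterocyte libraries in 3 of the 10 gained regions and the reverse held in 1, and scaled by total covered length these numbers were 0 and 7. Among the 10 lost regions both E12.5 libraries exceeded both E14.5 libraries in 4 as deposited and in 7 after scaling, and the reverse held in none on either scale. Of all lost regions, E12.5 was longer in 36.9% as deposited and in 56.6% after scaling, and E14.5 in 17.8% and 13.3%. Of all gained regions, ISC was longer in 26.7% and 11.8%, and enterocytes in 26.4% and 61.4%. The counts among 10 are therefore not read as a mark of the named regions. All 20 named regions met the rule when peaks below a −log10 q of 10 were dropped, when each list was cut to the same number of peaks, and when at least 50% of the region had to be covered.

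**Figure D3:**
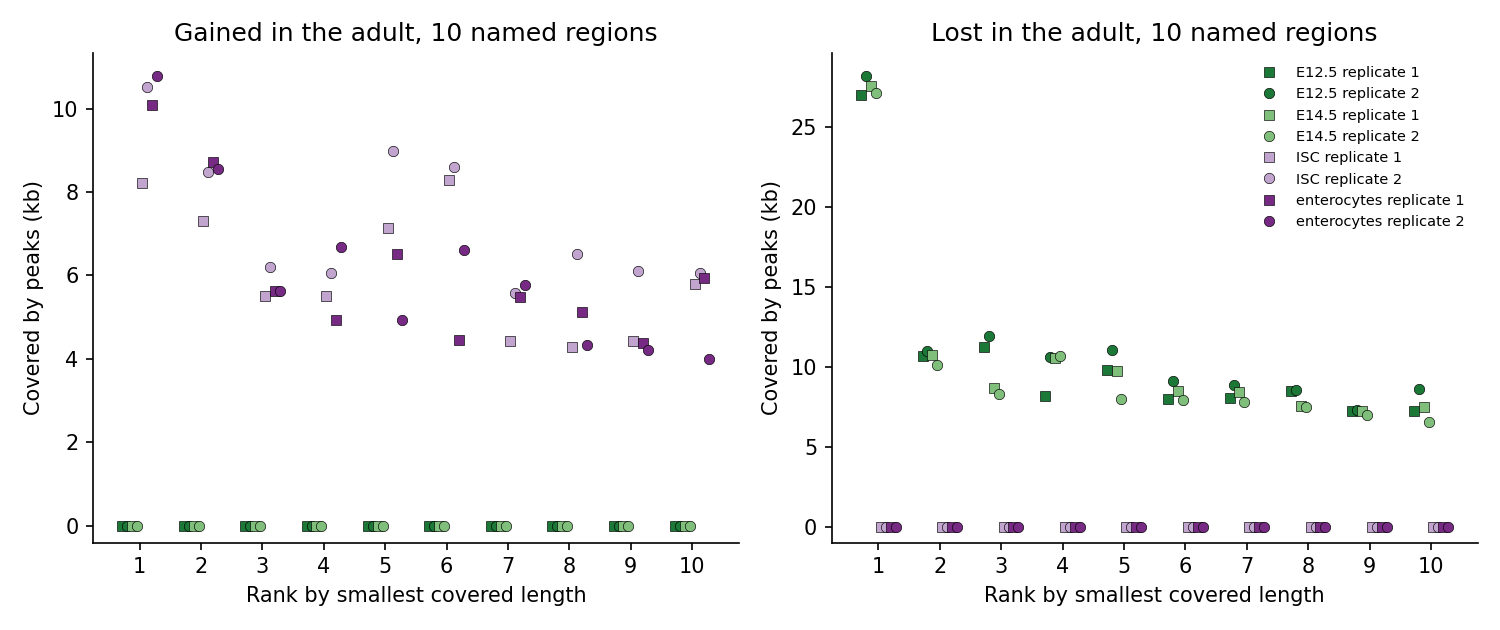
Length covered by peaks (kb, as deposited) in each of the 8 libraries for the 10 named gained (left) and the 10 named lost regions (right), ordered by the smallest covered length among the 4 libraries that have them; the vertical scales differ. The 27.01 to 28.2 kb of the first lost region stand above the 6.51 to 11.9 kb of the other 9, and zeros are libraries without a peak, as the rule requires.

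These long regions were not typical of their classes. The median merged length was 1763 bp for gained regions, 1454 bp for lost regions, 2871 bp for common regions and 754 bp for all merged regions. Of the gained regions 16.3% and of the lost regions 11.1% were at least 3 kb long, against 47.0% of the common regions and 12.0% of all. When each region was given the percentile of its best peak in the library's own list, the medians for gained regions were 40.7 to 58.2 over the 4 adult libraries and those for lost regions 43.4 to 60.5 over the 4 embryonic libraries. Common regions had medians of 77.5 to 87.6 over the 8 libraries. Above percentile 75 of every list of their age were 26 gained regions (1.68%) and 96 lost regions (2.38%), whereas 4776 common regions (38.9%) were above it in all 8 lists. A weaker peak is more easily missed in a library, and the part this has in a class defined by missing peaks was not tested.

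Gained and lost regions differed in their surroundings. The median gap to the nearest common region was 15.3 kb for gained regions and 64.2 kb for lost regions, with 17.9 kb from one common region to the next and 25.8 kb for all merged regions. Within 50 kb of a common region lay 78.2% of the gained and 44.0% of the lost regions, against 64.7% of all merged regions. Both classes lay near regions of their own kind. Of the lost regions, 30.8% had another lost region within 10 kb, and 0.669% had a gained one. Of the gained regions, 24.4% had another gained region within 10 kb, while of all merged regions 5.66% had a gained and 10.5% a lost region that close. Such neighbours include pieces of 1 stretch of peaks split by short gaps, such as chr10:44195645-44200024, which lay 0.067 kb from its named lost region. When peaks within 1 kb were merged, 1114 regions were gained and 3260 lost, and the shares above were not recomputed. These distances describe positions in 1 set of merged regions and carry no test, since neighbouring regions are not independent.

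**Figure D4:**
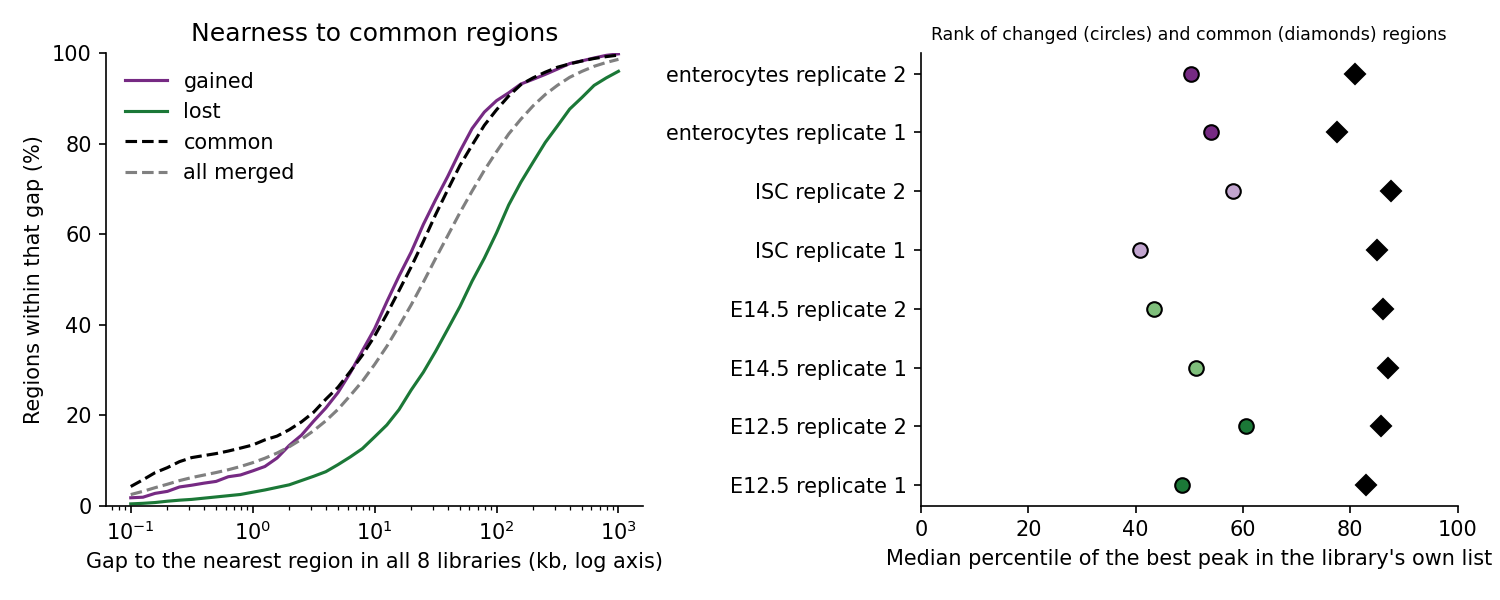
Left, percent of regions of each class whose gap to the nearest common region is at most the value on the horizontal log axis in kb; right, median percentile of a region's best peak in each library's own list for common regions (black diamonds) and for the gained or lost regions of its age (circles). The lost curve lies below the others, with 44.0% of regions within 50 kb against 78.2% of gained regions, and all circles lie at 40.7 to 60.5 against 77.5 to 87.6 for the diamonds.

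The largest clusters were of lost regions, which were also the more numerous class. With gaps of at most 50 kb allowed, 60 clusters held 5 or more lost regions, 409 of them in all (10.1%), and 9 clusters held 5 or more gained regions, 51 in all (3.29%). The largest had 16 lost regions at chr9:42480153-42717699, which together covered 26.1 and 35.4 kb at E12.5 against 38.8 and 33.9 kb at E14.5. No common region lay inside it, and the only adult peaks in its span were 1.66 kb in ISC replicate 2. A cluster of 14 lost regions at chr7:6645002-6872993 covered 63.1 and 71.5 kb for E12.5 and 22.7 and 19.5 kb for E14.5, with no adult peak anywhere in the span. In this cluster the drop was thus already large between the embryonic days, whereas the cluster on chromosome 9 was as long at E14.5 as at E12.5. The cluster of 13 lost regions at chr8:34994188-35201748 covered 35.3 to 45.2 kb in each embryonic library. It opened with 5 lost regions in a row, at chr8:34994188-35029309, with no other merged region between them, the longest such run of either class. Among them, chr8:35007176-35010970 and chr8:35010972-35018137 all but touched, and runs were not recounted with a wider merge.

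The largest gained cluster had 7 regions at chr12:80192869-80275846, with 7.84 and 11.8 kb in ISC and 9.47 and 9.29 kb in enterocytes. A cluster of 6 gained regions at chr4:148157341-148213931, which holds that second region, covered more, with 23.7 and 31.1 kb in ISC and 23.0 and 22.7 kb in enterocytes. At chr7:97167535-97244700, 6 gained regions covered 15.3 and 20.5 kb in ISC and 7.42 and 8.22 kb in enterocytes, and no embryonic peak of any kind lay in the span. A further 6 at chr7:120310096-120401967 covered 12.1 and 18.9 kb in ISC and 9.58 and 9.59 kb in enterocytes. These cluster lengths are as deposited. Scaling by total covered length multiplies the ISC libraries by 1.051 and 0.707 and the enterocyte libraries by 1.387 and 1.386. The order of the cell types at a cluster can therefore depend on it.

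Every chromosome with gained regions had more lost than gained regions. The number of lost regions per gained region ran from 1.54 on chromosome 19 (57 gained, 88 lost) to 3.76 on chromosome X (29 gained, 109 lost). Gained regions made up 1.66% to 2.41% of the merged regions of an autosome or of chromosome X, and lost regions 3.37% to 6.42%. Chromosome X took 1.202% to 1.60% of the covered length in adult libraries and 1.61% to 1.85% in embryonic libraries, without overlap, although ISC replicate 1 (1.601%) and E14.5 replicate 1 (1.606%) nearly met. The means were 1.40 ± 0.198% and 1.73 ± 0.132% (SD, n = 4 each), with p = 0.0286 in an exact two-sided permutation test, the smallest that 4 against 4 libraries can give, and 0.0857 after Benjamini-Hochberg adjustment over 3 measures, so the difference did not pass. Only males gave adult cells and the labels leave the embryos' sex unstated, so age and sex cannot be told apart here. Median peak length was 723 ± 84.1 bp in adult and 690 ± 61.8 bp in embryonic libraries (exact permutation p = 0.600, adjusted 0.600). The share of peaks of at least 3 kb was 7.62 ± 2.80% and 6.35 ± 1.94% (exact permutation p = 0.514, adjusted 0.600). Neither of these differences exceeded the spread between libraries.

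How far the changed regions varied within an age was read from covered length, which the rule did not use beyond presence. In 1490 lost regions (36.9%) both E12.5 libraries were covered over a greater length than both E14.5 libraries, and in 717 (17.8%) the reverse held. After each library was scaled by its total covered length the numbers were 2283 (56.6%) and 537 (13.3%). Among common regions the order depended on the scaling. As deposited, E14.5 was longer in 4699 (38.3%) and E12.5 in 1123 (9.14%), and scaled, E12.5 was longer in 4548 (37.0%) and E14.5 in 2646 (21.5%). For gained regions the cell types were level as deposited, with ISC longer in 413 (26.7%) and enterocytes in 408 (26.4%). After scaling, which raises the enterocyte libraries because they cover the least, enterocytes were longer in 951 (61.4%) and ISC in 182 (11.8%). Among common regions ISC was longer in 73.1% and enterocytes in 6.04% as deposited, and these shares were 23.3% and 40.3% after scaling. A direction between ISC and enterocytes within the gained regions therefore depended on that scaling. Lost regions were more often longer at E12.5 on both scales, and common regions only after scaling.

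The 20 kb windows that hold these regions were also read in a fit across the genome. Covered length in each window was scaled, log2(bp + 500) was fitted with limma, and a window was called at a Benjamini-Hochberg adjusted p below 0.05. Of the 30733 windows in which 2 or more libraries had peaks, 8125 (26.4%) were higher and 12447 (40.5%) were lower in the adult. Adult and embryonic libraries did not overlap in 42.5% of the higher and 52.1% of the lower windows, so in many called windows a library of one age lay within the range of the other. With the 4 groups reduced to 2, so that the difference between ISC and enterocytes and between the embryonic days counted as spread, 3039 windows were higher and 5467 lower. The median window changed by −0.21 on the log2 scale, and by −0.29 without scaling.

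The contrasts within each age, from the same fit and thus the same libraries, are given as a description. Over all windows, 4398 (14.3%) were higher and 3588 (11.7%) lower at E14.5 than at E12.5, and 4153 (13.5%) were higher and 7571 (24.6%) lower in enterocytes than in ISC. Of the 3449 windows that hold the midpoint of a lost region, 203 (5.89%) were higher and 1017 (29.5%) lower at E14.5. Of the 1396 windows that hold the midpoint of a gained region, 607 (43.5%) were higher and 114 (8.17%) lower in enterocytes, a count that includes the scaling described above. In the same windows, 205 (14.7%) were higher and 21 (1.504%) lower at E14.5 than at E12.5, although the gained regions themselves have no embryonic peak, so these counts come from other peaks of the window. Of the 10478 windows that hold the midpoint of a common region, 2008 (19.2%) were higher and 1644 (15.7%) lower in enterocytes. At E14.5, 1110 (10.6%) of them were higher and 381 (3.64%) lower than at E12.5. Gained and common regions must have a peak in both enterocyte libraries, and lost and common regions in all embryonic libraries. A tested window need not, so part of the difference from all windows can come from that choice, which was not tested.

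Runs of neighbouring called windows picked out long stretches of change. The longest run lower in the adult had 18 windows, 360 kb at chr12:80840001-81200000, and held 17 lost regions, 1 gained and 2 common regions among 99 in all. Peaks covered 94.2 and 136.1 kb of it in the E12.5 libraries, 100.6 and 82.7 kb in the E14.5 libraries, 32.3 and 49.8 kb in the ISC libraries and 4.00 and 3.78 kb in enterocytes. The ISC libraries thus stood between the embryonic and the enterocyte libraries. The same order held in the run of 16 windows at chr3:51580001-51900000, with 50.5 to 71.4 kb in the embryo, 17.2 and 26.6 kb in ISC and 3.54 and 3.53 kb in enterocytes, and in that of 13 windows at chr2:30440001-30700000, with 35.0 to 72.0 kb, 18.7 and 29.9 kb, and 3.05 and 5.10 kb.

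The longest run higher in the adult had 11 windows, 220 kb at chr11:53640001-53860000, with 4 gained and 6 common regions. Peaks covered 8.56 to 14.2 kb in the embryonic libraries, 33.5 and 47.7 kb in ISC and 34.0 and 29.6 kb in enterocytes. A run of 10 windows at chr7:20360001-20560000 had 13.0 and 20.6 kb in the E12.5 libraries, 32.8 and 30.7 kb in the E14.5 libraries, 45.2 and 68.0 kb in the ISC libraries and 48.8 and 46.3 kb in enterocytes, a rise in which E14.5 lay between E12.5 and the adult. The other run of 10 windows, chr10:127040001-127240000, held 7 gained and 7 common regions, with 11.5 to 24.8 kb in the embryo and 44.1 to 60.2 kb in the adult.

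Common regions, which the rule treats as unchanged, also differed between the ages in covered length. Of the 12282, 2984 (24.3%) were longer and 2840 (23.1%) shorter in the adult in the limma fit (adjusted p under 0.05), a nearly even split, and their libraries did not overlap between the ages in 1398 and 1450. Without scaling, 1848 were longer and 3709 shorter, so that the longer regions fell from 51.2% to 33.3% of the calls, and the median common region changed by −0.15 in place of −0.02 on the log2 scale. The median called change was 0.63 among longer and −0.48 among shorter regions, and 680 and 277 of them changed by at least 1 on the log2 scale. The fit took the spread of most common regions from the trend over all of them (the median prior degrees of freedom were infinite), so its p-values rest on that pooled spread between duplicates. Reduced to 2 groups, it called 1106 longer and 830 shorter regions. Within an age the same fit called 1191 common regions (9.7%) longer and 271 (2.21%) shorter at E14.5 than at E12.5, and 2657 (21.6%) longer and 1819 (14.8%) shorter in enterocytes than in ISC.

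The common region that shrank most was chr7:149704557-149730038, beside the longest lost region. Peaks covered 22.1 and 24.9 kb of it in the E12.5 libraries, 24.2 and 23.3 kb in the E14.5 libraries, 0.795 and 1.33 kb in the ISC libraries, and 0.979 and 0.761 kb in enterocytes. On the scale of log2(scaled bp + 500) it fell by 3.92 (SE 0.135). The next, chr5:28782129-28797976, went from 14.9 to 15.8 kb in the embryo to 0.789 to 3.09 kb in the adult. At chr10:44712677-44724730 the embryonic libraries had 11.1 to 11.8 kb, ISC 2.64 and 3.79 kb, and enterocytes 0.348 and 0.326 kb, a further fall between the adult cell types (log2 difference −1.74). The regions chr4:153842745-153859569 and chr11:59984391-59998993 went from 13.0 to 15.4 kb and 12.6 to 14.45 kb in the embryo to 0.924 to 2.77 kb and 1.11 to 3.20 kb in the adult.

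Of the common regions that grew, chr9:57786230-57805575 changed most, by 3.29 on the log2 scale (SE 0.131). The embryonic libraries had 0.564 to 0.897 kb, ISC 18.0 and 19.4 kb, and enterocytes 5.50 and 6.52 kb, so the stem cells held the most. The region chr8:125855167-125867303 went from 0.243 to 1.03 kb in the embryo to 9.60 and 12.0 kb in ISC and 6.17 and 6.65 kb in enterocytes. Scaled, the cell types overlapped at this region, with 10.1 and 8.50 kb in ISC and 8.56 and 9.21 kb in enterocytes. At chr9:71431391-71441130 the adult libraries had 6.56 to 9.65 kb and the embryonic ones 0.286 to 1.06 kb, and at chr15:86008214-86020921 they had 8.15 to 12.0 kb and 0.747 to 1.23 kb. At chr5:53492332-53503245 the growth began in the embryo: peaks covered 0.224 and 0.264 kb in the E12.5 libraries, 2.41 and 1.88 kb in the E14.5 libraries, 6.91 and 9.78 kb in the ISC libraries and 10.5 and 7.90 kb in enterocytes. The largest limma adjusted p among these 10 regions was 7.48e-25 with 4 groups and 0.00411 with 2 groups.

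**Figure D5:**
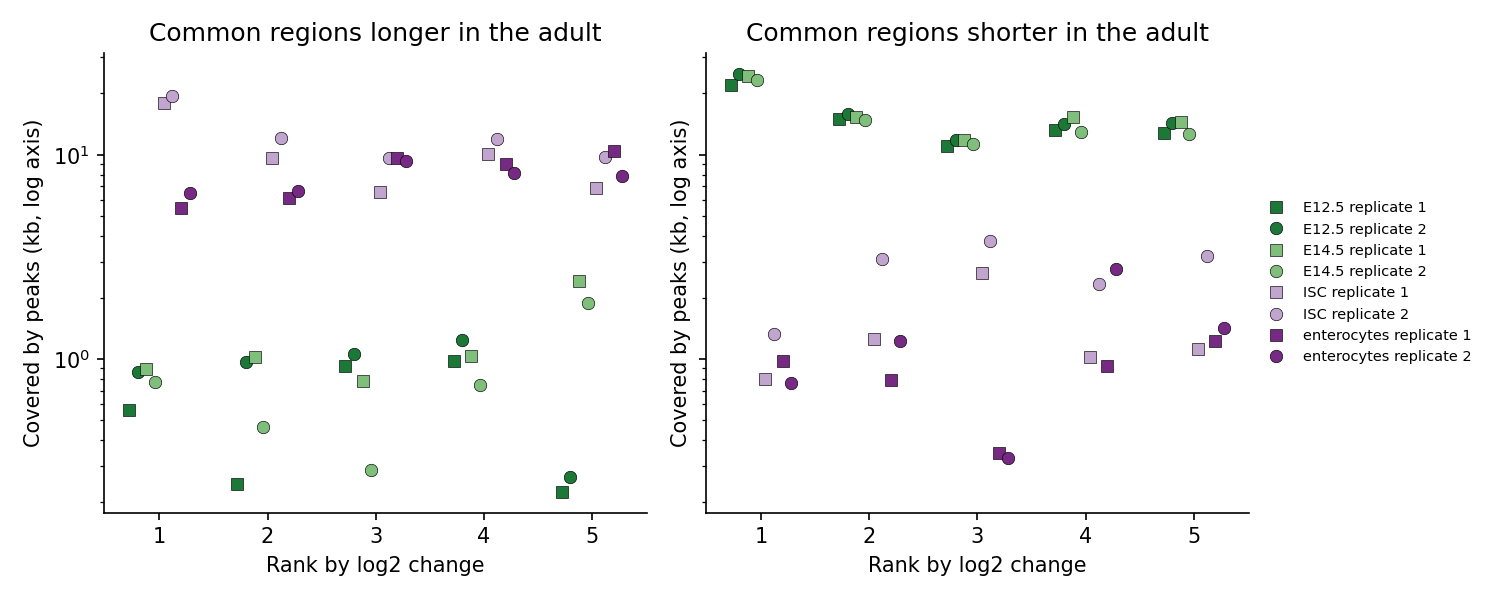
Length covered by peaks (kb, as deposited, log axis) in each of the 8 libraries for the 5 common regions with the largest growth (left) and the 5 with the largest shrinkage in the adult (right). The choice of regions required that adult and embryonic libraries do not overlap; in the third shorter region the enterocyte libraries (0.348 and 0.326 kb) lie below the ISC libraries (2.64 and 3.79 kb).

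Counted in bases rather than regions, the change was spread over more than the gained and lost classes. Bases covered in all 4 adult and no embryonic library came to 3.09 Mb, of which 34.9% lay inside gained regions and 33.9% inside common regions. Bases covered in all 4 embryonic and no adult library came to 5.57 Mb, of which 51.8% lay inside lost and 14.7% inside common regions. Adult-only bases thus lay inside gained and inside common regions in like shares, with the rest in neither class, whereas more embryonic-only bases lay inside lost than inside common regions. By merged length the gained regions came to 3.19 Mb, the lost to 7.07 Mb and the common to 45.8 Mb. The shares therefore do not compare the classes at equal length. Covered in all 8 libraries were 15.4 Mb, or 13.4% of the 114.7 Mb covered in any.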

How the data were processed

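The submitters' processing notes name bcl2fastq 1.8.4, Bowtie 1.1.2, SAMtools 1.2, MACS2 and the build mm9. Per the file headers, the authors called narrow peaks for each library against its own input with MACS 2.1.0.20140616 at a q-value threshold of 0.05, from 51 bp tags with 1 tag kept per position. The deposited lists give peak positions and lengths, a pileup signal, −log10 p and −log10 q values and a fold enrichment ratio. The authors' scores were used here to order or filter the peaks of a library. Between libraries they were used only for the median fold enrichment of common regions at the embryonic days. Read counts were not used here, so precision rests on 2 libraries per group. The inputs entered only through the peak calls.

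Positions are 1-based. A library had a region with at least 1 bp of peak in it. Windows and common regions were fitted with limma 3.58.1 in R 4.3.3 (eBayes with trend and robust, 4 group means, 4 residual degrees of freedom, 500 bp added); other steps used Python 3.11.15. Per-library values went through exact permutation tests (two-sided), and p-values throughout reflect how much these libraries vary. Those of the fits with 4 group means reflect only the spread between the 2 libraries of a group. The named regions are the 10 gained and 10 lost regions with the greatest smallest covered length, the 5 longer and 5 shorter common regions with the largest change and no overlap, each at least 100 kb apart, and the 3 longest runs of windows per direction. Clusters, and regions next to a named one, were named after their values were seen. Members and lists were chosen with earlier results of these data known. A gene table of mm9 was not used here, so planned gene and marker lists were not analysed. The scripts were tested on simulated data. Alternatives were stricter peaks, equal numbers of peaks, other scaling, filters, window sizes and criteria, a replicate block and each library left out.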

Additional observations from a re-analysis of the deposited data

Results flagged for a closer look

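In 46 sets of 4 libraries of an age, 6 had a library that stood apart from the other 3. Chance alone marks about 1 set in 20 when all 4 values come from 1 distribution. Here each set held 2 groups, and the named regions were picked by their values, so the 6 cannot be set against that rate. In the gained region chr4:148157341-148166165, ISC replicate 1 was the lowest adult library with 7.31 kb. ISC replicate 2 was the highest in the gained region chr12:86767492-86773595, with 6.10 kb. Enterocyte replicate 2 was the lowest in the gained region chr11:42968322-42974378, with 3.99 kb. E12.5 replicate 1 was the lowest embryonic library in the lost region chr10:44200092-44210794, with 8.19 kb. Among common regions, ISC replicate 1 was the lowest adult library at chr9:71431391-71441130, with 6.56 kb, and ISC replicate 2 the highest at chr11:59984391-59998993, with 3.20 kb. All these values are as deposited. After scaling by total covered length, the named library kept its place only at chr11:59984391-59998993, with 2.26 kb. ISC replicate 2 was then the lowest adult library at chr12:86767492-86773595 (4.32 kb), and E12.5 replicate 1 the highest embryonic library at chr10:44200092-44210794 (10.11 kb).

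In 5 of the 10 named common regions the change from the embryo differed between the adult cell types, by the limma contrast of enterocytes minus ISC on scaled covered length. Of all common regions, 21.6% were longer and 14.8% shorter in that contrast, so 5 of 10 is no mark of these regions. The log2 difference was −0.92 at chr9:57786230-57805575, 0.89 at chr9:71431391-71441130 and 0.79 at chr5:53492332-53503245, which were longer in the adult. It was −1.74 at chr10:44712677-44724730 and 0.59 at chr4:153842745-153859569, which were shorter. The largest limma adjusted p of the 5 was 0.0270.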

How the results depend on the processing

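With peaks of −log10 q of at least 10, 915 regions were gained and 1816 lost, 7866 windows were lower, and 1710 common regions were longer and 1881 shorter. Where 3 of 4 libraries of an age sufficed, 3085 regions were gained and 6650 lost, a setting chosen after seeing the data, as were the removals of both libraries of a cell type. Those gave 5947 gained without enterocytes, and 6056 gained and 9369 lost without ISC. In windows of 50 kb, 4992 were higher. With 2 groups, 3039 windows were higher and 5467 lower, and 1106 common regions were longer and 830 shorter, because differences within an age then count as spread. Without scaling, 1848 common regions were longer. For the other alternatives these counts stayed within 1.5 times, apart from libraries left out singly, which gave 1553 to 2540 gained and 4061 to 5605 lost regions, 6554 to 7472 higher and 10111 to 12144 lower windows, and 2420 to 3488 longer and 1930 to 3248 shorter common regions. The adult minus embryonic median peak length turned from 33.5 bp to −59.2 bp with stricter peaks and −137 bp with equal numbers of peaks, and was −7.17 to 57.2 bp with libraries left out, negative without ISC replicate 2. The chromosome X share differed by −0.335 percentage points with stricter peaks (exact permutation p = 0.0571) and by −0.398 to −0.264 with libraries left out. The share of peaks of at least 3 kb differed by −0.0984 to 1.89 percentage points with libraries left out, negative without ISC replicate 2. Apart from smaller sample numbers, the cause of these changes was not tested.

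Replicate numbers did not pair the libraries: the deviations of replicate 1 from its group mean correlated across windows at −0.176 to 0.173 between groups. With a replicate block, 7946 windows were higher and 12025 lower, and 2911 common regions were longer and 2666 shorter. Depth per region is unknown, so a missing peak is a missing call and not a measured absence of H3K27ac.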

Other observations

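Chromosome Y held 4 to 6 peaks in 7 libraries and 17 in ISC replicate 1, which also had the only peak on the mitochondrial genome. The merged regions on chromosome Y numbered 16, of which 2 were in all 8 libraries and none was gained or lost.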
